A study of Mus musculus with 27 samples.

Results

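The replication licensing genes described here are Mcm2, Mcm3, Mcm4, Mcm5, Mcm6, Mcm7, Mcm10, Cdt1, Cdc6 and Gmnn, found in the count table by the Ensembl identifier that belongs to each symbol. All 10 were present among the 55414 genes measured, and all 10 passed the filter on low counts, which left 14114 genes for testing. RNA from whole liver of 27 female Balb/c mice, 8 weeks old, was sequenced in 8 groups after 2 weeks of treatment. The study asked how inhibiting hyaluronan synthesis alters liver fibrosis induced by carbon tetrachloride (CCl4), a hepatotoxin activated in hepatocytes. The control group (4 mice) received olive oil into the peritoneum and phosphate-buffered saline into the tail vein. The 4MU group (3 mice) received olive oil and daily gavage of 4-methylumbelliferone (4MU), an inhibitor of hyaluronan synthesis. The siLuc-LNP and siHAS2-LNP groups (3 mice each) received olive oil and tail vein injections of lipid nanoparticles (LNP) with siRNA against luciferase, a non-targeting control, or against hyaluronan synthase Has2. The CCl4 group (2 mice) received intraperitoneal CCl4, and the 3 groups named CCl4 + siHAS2-LNP, CCl4 + siLuc-LNP and CCl4 + 4MU (4 mice each) received CCl4 with the respective treatment. The labels name no tail vein injection or gavage for the CCl4 group.

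Licensing is the loading of the replicative helicase onto origins before DNA is copied. In G1 phase the origin recognition complex and Cdc6 sit on the origin, and Cdt1 brings in the ring formed by Mcm2 to Mcm7. Geminin, the product of Gmnn, binds Cdt1 later in the cycle and prevents a further round of loading, while Mcm10 acts when the loaded helicase is turned on. Most hepatocytes of the adult liver are quiescent and re-enter the cycle after injury, and transcription of many licensing genes is under the control of E2F factors at the passage from G1 to S phase.

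The region around the transcription start of each member was searched for 4 words of the E2F type, TTTCCCGC, TTTCGCGC, TTTGCCGC and TTTGGCGC, on both strands, from 250 bases before to 50 after the start of the canonical transcript (GENCODE vM39, GRCm39). At least 1 match was present in 7 of 10 members (70.0%), compared with 3.76% of 12717 tested protein-coding genes and 2.77% of all 21627 protein-coding genes in windows of the same 300 bases. The members with 2 or more matches were Mcm3, Mcm4, Mcm5 and Mcm6 (40.0%), against 0.157% of the tested genes. Mcm5 and Mcm6 each carried a TTTCGCGC on one strand that overlapped a TTTGGCGC on the other, so that these pairs are not separate matches. Mcm2, Mcm7 and Mcm10 had no match, which says only that these letters were not in this window. A match is a description of the sequence and not evidence of binding. One match of each of the 7 genes, with the word in capitals and 11 bases on either side, is shown to let the words be compared beside the expression values:
Mcm3: acttgggaagtTTTGGCGCcaaggcggtgt
Mcm4: agctacacgccTTTGCCGCtgtgattggcc
Mcm5: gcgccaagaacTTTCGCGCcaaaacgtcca
Mcm6: ccgcacgcactTTTCGCGCcaaaagcatac
Cdt1: ggaactaccttTTTGGCGCcatggcgcaaa
Cdc6: agtagagcggcTTTGGCGCgagttgacttt
Gmnn: atattctcgtgTTTGCCGCtagtgagagtc
These lie at chr1:20890480-20890509 (minus strand), chr16:15455324-15455353 (minus), chr8:75835973-75836002 (plus), chr1:128287530-128287559 (plus), chr8:123294775-123294804 (plus), chr11:98798656-98798685 (plus) and chr13:24946131-24946160 (minus), in the order of the lines. Read in the direction of the gene, the match began 78 bases before the start in Mcm4, 156 in Mcm5, 96 in Mcm6 and 243 in Gmnn, and 38 bases after it in Mcm3 and Cdt1 and 40 in Cdc6.

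Total counts were 7044386 to 29425937 per library, the lowest in CCl4 + siHAS2-LNP mouse 4. A count of 3, taken as the limit of detection, equals 0.102 to 0.426 CPM (counts scaled to library size). This limit uses the plain total counts, whereas the levels of genes use totals with a further scaling, so the 2 differ slightly. Has2, the target of the siRNA, had 0 counts in 25 of 27 libraries, 2 in CCl4 mouse 2 and 1 in CCl4 + siLuc-LNP mouse 4, and a count of 0 allows a level up to that limit. The libraries therefore gave no check of the knockdown. The 5 hepatocyte markers summed to 69100 to 193000 CPM per library, and no hepatocyte marker was at 0 in any group. Replicates are taken to be separate mice, and p-values measure the spread between these samples. In bulk liver, fewer cells of a type and less RNA per cell cannot be told apart.

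CCl4 alone raised 9 of the 10 licensing genes, all except Mcm10, and these 9 did not overlap between the 2 CCl4 and the 4 control mice. Mcm6 and Cdc6 had the largest log2 fold changes among the members and Gmnn the smallest of those that rose. The share of all tested genes that rose in this comparison was 18.0% (edgeR's quasi-likelihood test, adjusted p below 0.05), and groups that did not overlap were seen for 50.6% of genes. The median log2 fold change was 3.58 over the members and -0.02 over all tested genes.

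**Figure D1:**
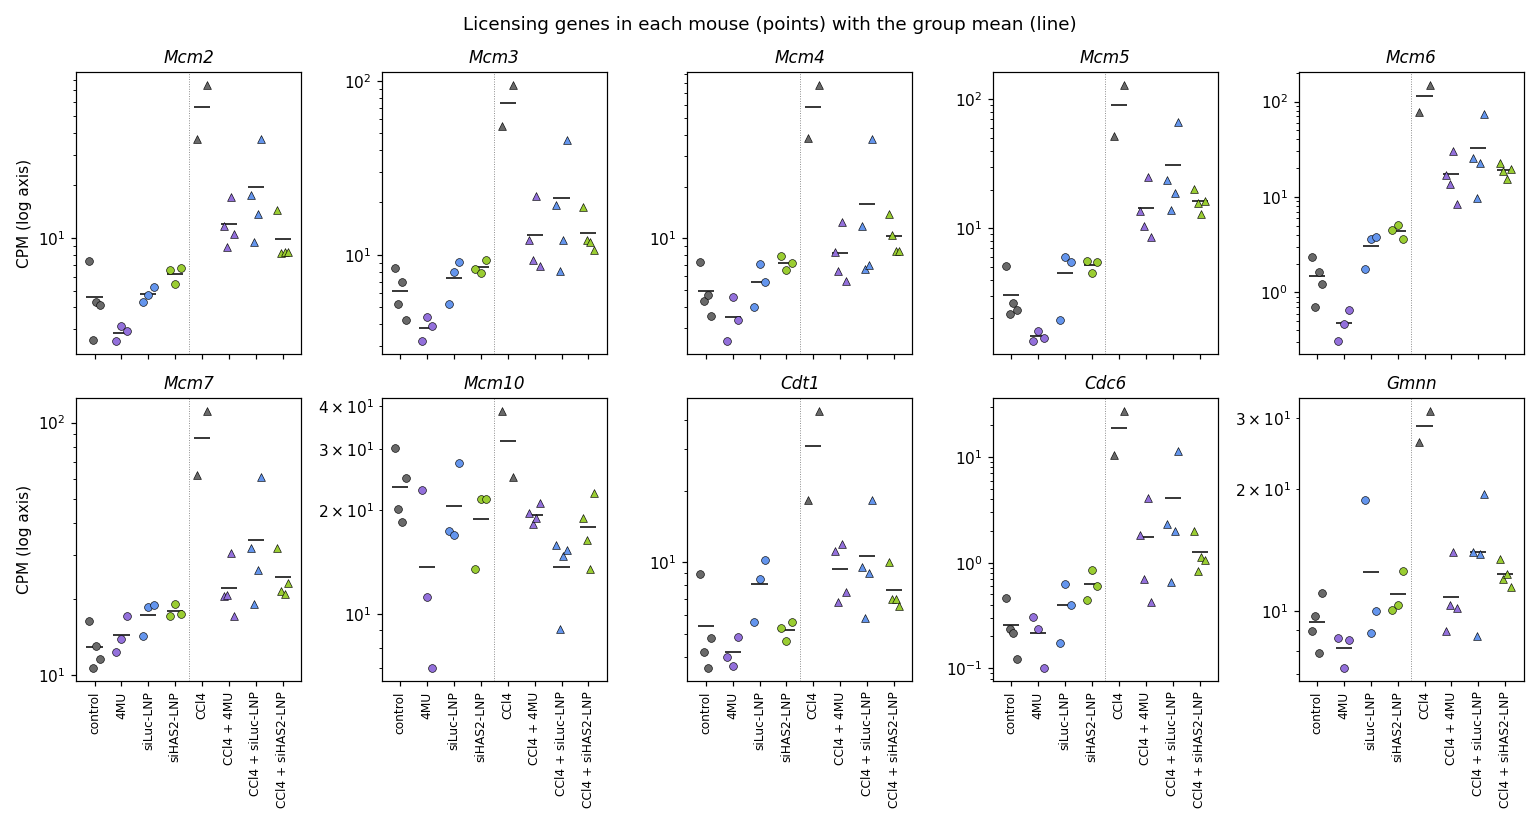
Level of each licensing gene in each of the 27 mice in CPM on a log axis, by group, with circles for mice without CCl4, triangles for mice given CCl4 and a line at the group mean. The 14 CCl4 mice sit above all 13 others for Mcm2, Mcm5 and Mcm6, a separation that 3.21% of all tested genes showed, and the groups of Mcm10 overlap.

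Mcm6, a subunit of the helicase ring, was at 2.34, 0.708, 1.62 and 1.23 CPM in control mice 1 to 4 and at 78.3 and 150.0 CPM in CCl4 mice 1 and 2. This was a log2 fold change of 6.26, with a standard error of 0.56 (adjusted p = 1.06e-08). Mcm5, another subunit, was at 5.09, 2.18, 2.65 and 2.33 CPM in control mice and at 51.7 and 130.0 CPM with CCl4, which gave 4.89 on the log2 scale (standard error 0.51). Control mouse 1 was the highest of the controls for every subunit of the ring, and CCl4 mouse 2 was the higher of the CCl4 mice.

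The other subunits of the ring rose less. Mcm2 was at 7.38, 2.6, 4.31 and 4.13 CPM in controls and 36.9 and 75.3 CPM with CCl4, Mcm3 at 8.4, 5.19, 7.0 and 4.21 against 54.7 and 95 CPM, and Mcm4 at 7.28, 4.31, 4.7 and 3.52 against 38.1 and 78.3 CPM. Their log2 fold changes were 3.60, 3.59 and 3.56, with standard errors of 0.39, 0.44 and 0.48. Mcm7 was at 16.4, 10.7, 13.1 and 11.6 CPM in controls and 62.3 and 111.0 CPM with CCl4, with a log2 fold change of 2.75 (standard error 0.30). The adjusted p of these 4 genes was between 1.45e-07 and 3.83e-06.

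Among the loading factors, Cdc6 was close to the limit of 3 counts in control liver, at 0.458, 0.236, 0.214 and 0.123 CPM (3 to 9 counts), and at 10.5 and 27.2 CPM (216 and 722 counts) in CCl4 mice. Its log2 fold change of 6.20 has a standard error of 0.85 (adjusted p = 5.16e-06), the largest error of the members. Cdt1 was at 8.96, 4.19, 3.59 and 4.78 CPM in control and at 18.3 and 43.4 CPM in CCl4 mice, with a log2 fold change of 2.52 (standard error 0.37). Gmnn, which encodes the inhibitor of Cdt1, was at 8.96, 9.74, 7.9 and 11.1 CPM against 26.2 and 31.2 CPM, with a log2 fold change of 1.61 (standard error 0.25).

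Without CCl4 mouse 2, 9 members were still called, and the log2 fold change was 4.1 for Mcm5, 5.37 for Cdc6, 2.97 for Mcm4 and 1.80 for Cdt1.

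Mcm10 did not follow this pattern. Its levels were 30.2, 20.1, 18.4 and 24.8 CPM in control mice and 38.6 and 24.9 CPM in CCl4 mice, so that the groups overlapped. On the log2 scale the difference was 0.44, with a standard error of 0.32 (adjusted p = 0.295). In the order of its group means, all 7 pairs of neighbouring groups overlapped, and 1 of 14 CCl4 mice lay above all mice without CCl4.

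Within the treated arms, the effect of CCl4 on the licensing genes was called for fewer members. Against 4MU alone, CCl4 + 4MU raised 6 of 10 (background 13.2% higher), namely Mcm2, Mcm3, Mcm5, Mcm6, Cdt1 and Cdc6. Against siLuc-LNP, CCl4 + siLuc-LNP raised 7 of 10 (background 13%), the ring subunits Mcm2 to Mcm7 and Cdc6. Against siHAS2-LNP, CCl4 + siHAS2-LNP raised 2 of 10 (background 7.74%), Mcm5 and Mcm6. In the 4MU arm 4 members were called without 4MU mouse 2 or CCl4 + 4MU mouse 3, and 5 without 4MU mouse 3. Without siHAS2-LNP mouse 1, 2 or 3, Mcm6 alone was called in the siHAS2-LNP arm, and 4 members were called in the siLuc-LNP arm without siLuc-LNP mouse 1 or without CCl4 + siLuc-LNP mouse 4.

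Mcm6 rose in each treated arm. It was at 0.307, 0.469 and 0.658 CPM in 4MU mice and at 17.0, 13.6, 30.0 and 8.4 CPM in CCl4 + 4MU mice (log2 fold change 5.16, standard error 0.65). In the siLuc-LNP arm the values were 1.77, 3.65 and 3.78 CPM against 25.6, 9.76, 22.9 and 73.5 CPM (3.42, standard error 0.53), and in the siHAS2-LNP arm 4.48, 5.14 and 3.65 CPM against 22.9, 18.8, 15.4 and 19.6 CPM (2.11, standard error 0.50). The groups did not overlap in any of the 3 arms, as for 36.0%, 26.1% and 27.7% of all genes. CCl4 + siLuc-LNP mouse 4 stood above the other 3 mice of its group for Mcm6.

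Mcm5 followed the same order of arms, with log2 fold changes of 3.30, 2.78 and 1.65 in the 4MU, siLuc-LNP and siHAS2-LNP arms (adjusted p of 8.88e-05, 0.000209 and 0.0232). The corresponding values of Mcm2 were 2.06, 2.03 and 0.67, of which the last was not called (adjusted p = 0.249). Gmnn had values of 0.42, 0.16 and 0.17 and Mcm10 of 0.50, -0.59 and -0.09, none called. These differences between arms are values set side by side, and the interaction tests are given further on.

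**Figure D2:**
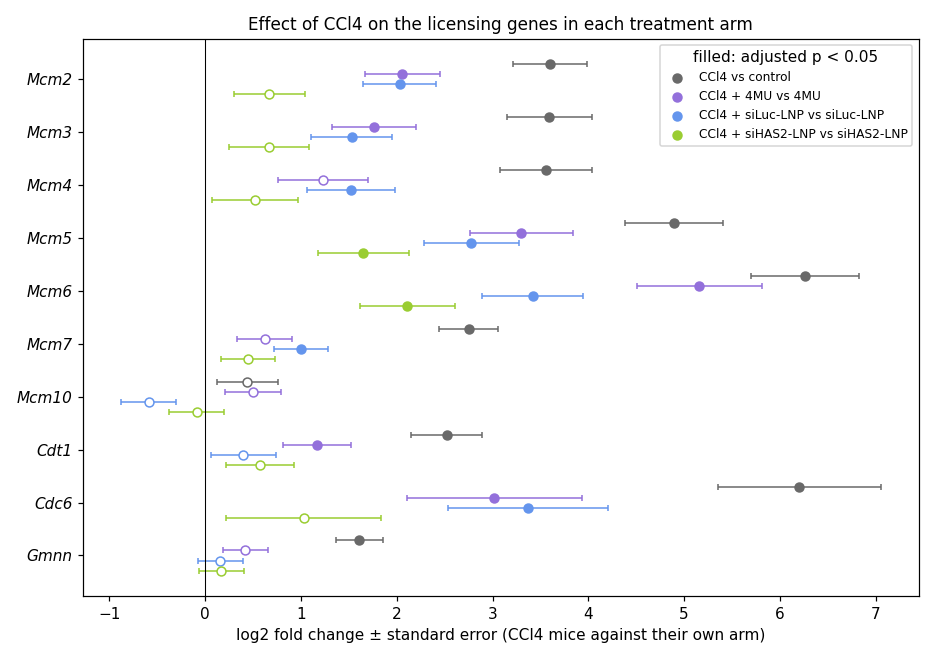
The log2 fold change of each member with its standard error, for CCl4 against its own arm without CCl4, in mice without further treatment, with 4MU, with siLuc-LNP and with siHAS2-LNP. Filled points passed an adjusted p of 0.05, which 9, 6, 7 and 2 members did, and the values without further treatment lie furthest to the right for all members except Mcm10, for which 4MU does.

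Averaged over the 4 arms, CCl4 raised 9 of 10 members (background 26.3% higher), with a median of 1.80 over the members on the log2 scale. The mean effect was 4.24 for Mcm6, 3.4 for Cdc6, 3.16 for Mcm5, 2.09 for Mcm2, 1.89 for Mcm3, 1.71 for Mcm4, 1.20 for Mcm7, 1.17 for Cdt1 and 0.59 for Gmnn. Mcm10 was at 0.07 (standard error 0.15, adjusted p = 0.726). All 14 CCl4 mice lay above all 13 other mice for 3 of 10 members, Mcm2, Mcm5 and Mcm6 (3.21% of all tested genes), as did 13 for Mcm7, 11 for Mcm3, 10 for Mcm4 and Cdc6, 5 for Cdt1 and 3 for Gmnn. Mcm3, Mcm4, Mcm5 and Mcm6 shared one order of group means, from CCl4 through CCl4 + siLuc-LNP, CCl4 + siHAS2-LNP, CCl4 + 4MU, siHAS2-LNP, siLuc-LNP and control down to 4MU. For Mcm3 and Mcm4, CCl4 above CCl4 + siLuc-LNP was the only neighbouring pair of groups whose mice did not overlap.

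Adding 4MU to CCl4 lowered 9 of 10 members relative to CCl4 alone (background 10% lower), again all except Mcm10. The same number fell with siHAS2-LNP (background 7.33%). Both comparisons use the same 2 CCl4 mice, so they are not independent of each other. For all 10 members the CCl4 mice lay above every CCl4 + 4MU and every CCl4 + siHAS2-LNP mouse, where 44.4% and 37.1% of all genes did not overlap.

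Cdc6 had the largest decrease, from 10.5 and 27.2 CPM in CCl4 mice to 1.81, 0.698, 4.14 and 0.427 CPM with 4MU and 2.0, 0.83, 1.12 and 1.07 CPM with siHAS2-LNP. The log2 fold changes were -3.4 (standard error 0.71, adjusted p = 0.00259) and -3.87 (standard error 0.74, adjusted p = 0.00207). Mcm4, a helicase subunit, went from 38.1 and 78.3 CPM to 8.26, 6.43, 12.5 and 5.62 CPM with 4MU and 13.8, 10.5, 8.39 and 8.41 CPM with siHAS2-LNP, with log2 fold changes of -2.82 and -2.49. All treated mice were below both CCl4 mice for these 2 genes.

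The remaining subunits of the ring fell by similar amounts. With 4MU the log2 fold changes were -2.72 for Mcm6, -2.65 for Mcm5, -2.53 for Mcm3, -2.22 for Mcm2 and -1.97 for Mcm7, and with siHAS2-LNP -2.57, -2.48, -2.47, -2.51 and -1.83. Cdt1 fell by 1.72 and 2.00 and Gmnn by 1.40 and 1.21 on the log2 scale. Mcm10 was at -0.71 (standard error 0.32, adjusted p = 0.113) and -0.85 (standard error 0.32, adjusted p = 0.0718).

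These calls rest in part on CCl4 mouse 2, which had the higher level of every member except Mcm10. Without it, 4 members were called with 4MU (Mcm3, Mcm4, Mcm7 and Gmnn) and 1 with siHAS2-LNP (Mcm2), while 9 were called in both without CCl4 mouse 1. A lone CCl4 mouse is assumed to vary like the other groups. All 10 log2 fold changes kept their sign without CCl4 mouse 2, at -2.59 to -1.0 with 4MU and -3.06 to -1.11 with siHAS2-LNP. Cdt1 was then at -1.0 and -1.28, Mcm5 at -1.87 and -1.70 and Cdc6 at -2.59 and -3.06.

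**Figure D3:**
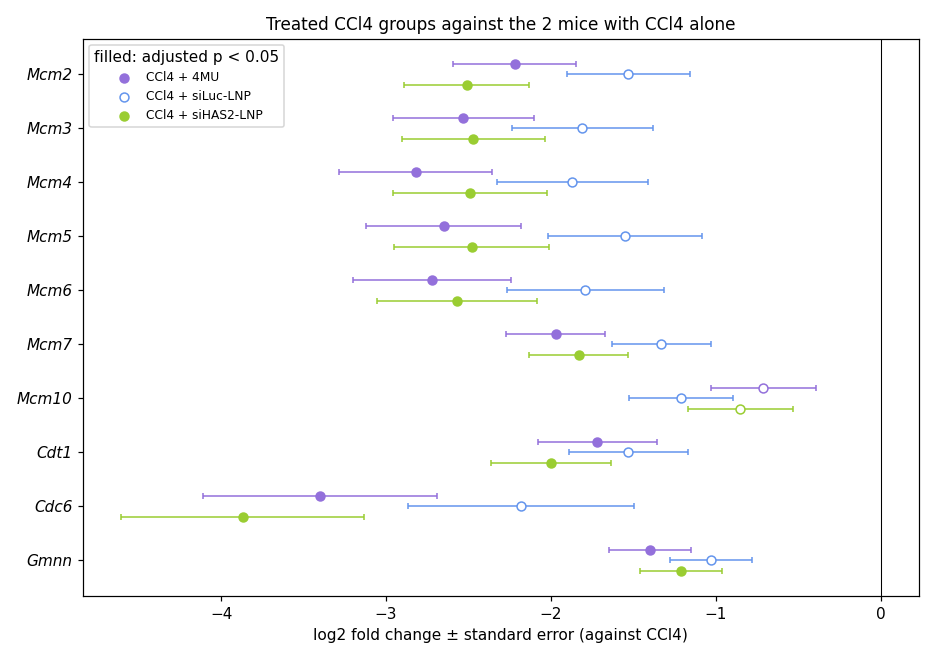
The log2 fold change of each member with its standard error, for each treated CCl4 group against the 2 CCl4 mice. All values lie below 0, and filled points, which passed an adjusted p of 0.05, are seen for 9 members with 4MU, 0 with siLuc-LNP and 9 with siHAS2-LNP.

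The non-targeting siLuc-LNP gave values of the same sign without a call. In CCl4 + siLuc-LNP against CCl4, 0 of 10 members passed the threshold (background 0.191% lower and 0.248% either way), with adjusted p between 0.0532 and 0.139 by edgeR, and 10 of 10 had an unadjusted p under 0.05. The log2 fold changes were -2.18 for Cdc6, -1.87 for Mcm4, -1.81 for Mcm3, -1.79 for Mcm6, -1.55 for Mcm5, -1.53 for Mcm2 and Cdt1, -1.33 for Mcm7, -1.21 for Mcm10 and -1.03 for Gmnn. DESeq2 called 7 and limma-voom 9. Here and below, the share of all tested genes called is given only at the adjusted threshold of the edgeR fit with all mice. The edgeR count also changed when a mouse was left out. CCl4 + siLuc-LNP mouse 4 was at 37.8 CPM for Mcm4, where the other 3 mice were at 11.8, 6.64 and 6.96 CPM, and without it all 10 members were called. Without CCl4 mouse 1 the number was 5.

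No member was called between CCl4 + siHAS2-LNP and CCl4 + siLuc-LNP (background 1.09%), with 3 of 10 at an unadjusted p under 0.05 by edgeR and log2 fold changes from -1.70 for Cdc6 to 0.37 for Mcm10. The unadjusted 95% interval of the difference was -3.07 to -0.32 for Cdc6, -1.67 to -0.29 for Mcm2 and -1.78 to -0.08 for Mcm5, and it included 0 for the others. For Mcm4 the value was -0.62, and 0.26 without CCl4 + siLuc-LNP mouse 4. Between CCl4 + 4MU and CCl4 + siHAS2-LNP, 0 of 10 were called (background 1.22%), 0 had an unadjusted p under 0.05, and the log2 fold changes were -0.33 to 0.47.

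Treatments without CCl4 gave no call on the members. 4MU against control had log2 fold changes from -1.62 to 0.16, with 0 of 10 called (background 0.00709%). At an unadjusted p under 0.05 by edgeR there were 2 of 10, for which no share of all genes is given. The range was -0.18 to 1.05 for siLuc-LNP against control (background 0.213%) and -0.64 to 0.65 for siHAS2-LNP against siLuc-LNP (background 0.0425%), with 0 of 10 at an unadjusted p under 0.05 in both.

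The interaction of 4MU with CCl4 tests whether the effect of CCl4 differed between mice with and without 4MU. It was negative and past the threshold for 3 of 10 members (background 2.95%): Mcm4 at -2.33 (standard error 0.66, adjusted p = 0.0401), Mcm7 at -2.13 (standard error 0.41, adjusted p = 0.0115) and Gmnn at -1.18 (standard error 0.34, adjusted p = 0.043). For Mcm7 the underlying effects of CCl4 were 2.75 without and 0.62 with 4MU. Without CCl4 mouse 2 the count was 0, without CCl4 mouse 1 it was 6, and it was 1 without control mouse 2 or 3, 4MU mouse 2 or 3, or CCl4 + 4MU mouse 1, 2 or 4. The interaction of siHAS2-LNP with CCl4, set against siLuc-LNP, gave 0 calls (background 0.0354%) by edgeR and 1 unadjusted p under 0.05, with values from -2.34 to 0.50.

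The ring holds its subunits in equal numbers, and their mRNA levels were also compared per length, as CPM per kilobase of merged exons. In control liver Mcm6 was the lowest subunit at 0.271 and Mcm7 the highest at 2.31 CPM per kilobase (group means, n = 4). In CCl4 liver Mcm2 was the lowest at 7.09 and Mcm6 the highest at 21.0 CPM per kilobase (n = 2). With the longest transcript as length, Mcm6 and Mcm7 were again the lowest and highest in control liver, while in CCl4 liver the lowest was Mcm4 (11.3) and the highest Mcm7 (29.3 CPM per kilobase). The level of the highest divided by that of the lowest subunit was 2.48 to 3.94 (median 3.0) in the 14 CCl4 mice and 3.73 to 39.2 (median 7.82) in the 13 other mice, with 25.2 to 39.2 in the 4MU mice. With the longest transcript as length the ratios were 2.47 to 6.54 (median 4.33) and 5.72 to 60.5 (median 12). The lowest subunit in 4MU and control mice, Mcm6, had only 6 to 13 and 12 to 46 counts, so that the ratios there are imprecise. The ranges overlapped with both lengths, and the difference between CCl4 mice and the others was not tested.

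**Figure D4:**
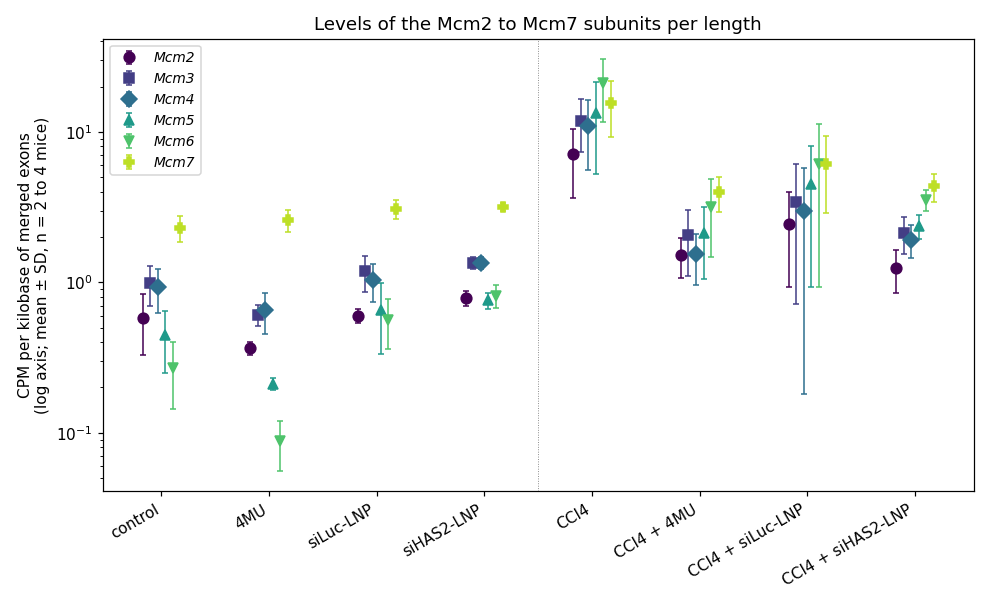
Mean level of Mcm2 to Mcm7 in each group in CPM per kilobase of merged exons on a log axis, with the standard deviation over 2 to 4 mice. Without CCl4 the subunits spread from Mcm6 or Mcm5 at the bottom to Mcm7 at the top, and in the CCl4 groups they lie closer together.

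Cdt1 was then set against Gmnn within each library, a ratio of counts that needs no scaling between libraries. Only its differences between mice are read, since the transcripts differ in length. The log2 ratio was -0.41 ± 0.399 (SD, n = 14) in CCl4 mice and -0.88 ± 0.542 (SD, n = 13) in the others. The difference was 0.48 (p = 0.0147, two-sided permutation test). That test shuffled all mice without regard to their arm, although the arms hold unequal numbers of mice with and without CCl4. Within arms the difference was 0.87 without further treatment (p = 0.267), 0.73 with 4MU (p = 0.0571), 0.13 with siLuc-LNP (p = 0.857) and 0.37 with siHAS2-LNP (p = 0.0571) by exact two-sided permutation tests. In the 4MU and siHAS2-LNP arms every CCl4 mouse lay above every mouse without CCl4, and 0.0571 is the smallest p this test allows there. None of the 4 designs can give a p under 0.05. Control mouse 1, at 0.0, 2 of the siLuc-LNP mice, at -0.06 and 0.02, and 4MU mouse 3, at -0.81, lay among the CCl4 mice, and siLuc-LNP mouse 1 was the lowest of all at -1.75.

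**Figure D5:**
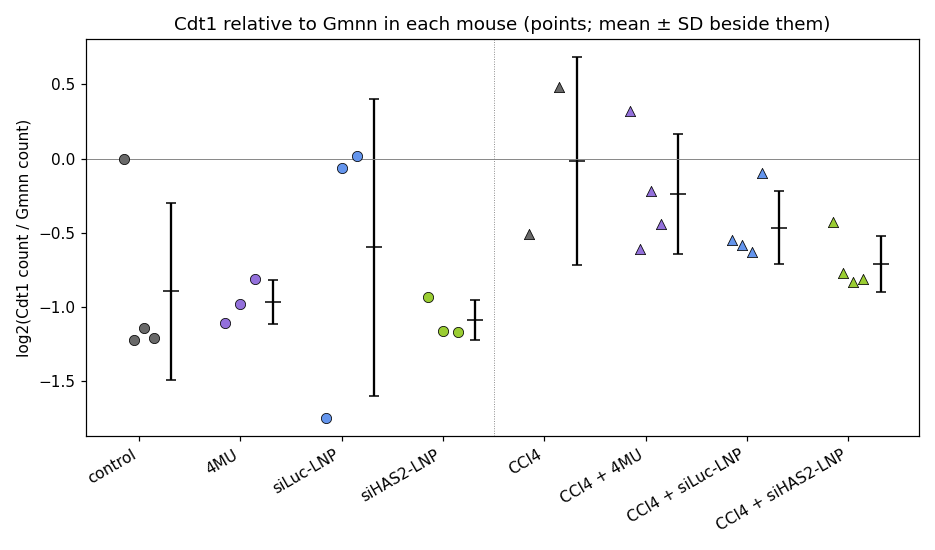
The log2 ratio of Cdt1 to Gmnn counts in each of the 27 mice by group, with the mean and standard deviation of the group beside the points. The mean is -0.41 over the CCl4 mice and -0.88 over the others, with overlap in each direction.

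In the mean effect of CCl4, which raised 26.3% of all tested genes, 2 of the 6 origin recognition genes rose, Orc1 (log2 fold change 2.95), a subunit whose level varies through the cell cycle, and Orc6 (0.55), and Orc5 was lower (-0.53). Of 10 tested licensing regulators and relatives of the ring, 5 rose, led by Dtl (2.96), which directs the degradation of Cdt1 in S phase, and Mcm8 (1.12), a helicase of repair. Of 14 genes of origin firing, 12 rose, led by Ticrr (4.15) and Gins2 (3.58), and of 23 fork genes 20 rose, led by Clspn (3.90) and Pole (2.60), and Pold2 fell by 0.45. Of 15 G1/S regulators 13 rose, led by Ccna2 (4.46), the cyclin of S phase, and E2f7 (3.04). The proliferation genes Mki67 and Top2a rose by 4.26 and 4.23. The lists had medians of 0.16, 0.19, 1.55, 0.77 and 1.22 in that order, against -0.02 over all tested genes.

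With 4MU added to CCl4, the same lists had 3 of 6, 3 of 10, 14 of 14, 22 of 23 and 11 of 15 genes lower (10% of all tested genes), and with siHAS2-LNP 2, 3, 11, 22 and 8 (7.33%). Orc1 fell by 1.96, Dtl by 2.99, Cdc7, a kinase that fires origins, by 2.89, Clspn by 2.94 and E2f7 by 2.69 on the log2 scale in CCl4 + 4MU against CCl4. Top2a fell by 2.74 and Mki67 by 1.80. The genes other than members whose level, centred on its mean over 27 libraries, stayed closest to the mean of the members were Mms22l, Lig1, Rrm1, Chaf1b and E2f1, at a mean absolute difference of 0.181 to 0.220 on the log2 scale. Among the members this difference ran from 0.145 for Mcm3 to 0.768 for Mcm10 and 1.0 for Mcm6.

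Markers of several cell types also changed in these comparisons, not always in the direction of the members. Of all tested genes 18.0% rose in CCl4 against control. The shares that rose within the treated arms, and that fell in the treated CCl4 groups against CCl4, are given above. For the opposite directions, the background is the rest of the genes called either way, out of 14114 tested. In CCl4 against control, 4805 genes were called, 2537 of them higher. In CCl4 + 4MU against CCl4, 2580 were called, 1412 of them lower. Within the siLuc-LNP arm 3418 were called, 1841 of them higher, and within the siHAS2-LNP arm 1812 were called, 1093 of them higher. A count of 1 or 2 called markers is not read alone as a change of a cell type. In CCl4 against control mice, 6 of 6 infiltrating macrophage markers rose (sums of 95.6 to 106.0 against 5.45 to 9.4 CPM), as did 5 of 6 stellate cell markers (403.0 to 656.0 against 41.6 to 75.9 CPM) and 2 of 5 cholangiocyte markers (241.0 to 297.0 against 34.5 to 77.0 CPM). Of the hepatocyte markers 3 of 5 fell, with sums of 69100 to 122000 against 156000 to 193000 CPM, and 2 of 6 lymphocyte markers fell. Of 5 Kupffer cell markers 1 rose and 1 fell, and of 5 sinusoidal endothelial markers 2 rose and 1 fell. Of 3 tested erythroid precursor markers 1 rose and 1 fell. The sums over all 5 listed erythroid markers were 121.0 to 122.0 against 19.1 to 32.1 CPM. The single markers did not move together. In the mean effect of CCl4 the log2 fold change was 1.06 for Tfrc, -0.79 for Epor and -0.72 for Klf1. Gpnmb was at 0 in at least 1 control library, and Marco and Ms4a1 in at least 1 CCl4 + siHAS2-LNP library. In CCl4 + 4MU against CCl4, 3 of 5 hepatocyte markers rose (sums of 141000 to 169000 CPM with 4MU). Of the infiltrating macrophage markers 1 of 6 fell, while their sum was higher (123.0 to 221.0 against 95.6 to 106.0 CPM). Of the 3 tested erythroid precursor markers 1 fell. In CCl4 + siHAS2-LNP against CCl4, 3 of 6 stellate cell, 4 of 5 Kupffer cell, 2 of 5 sinusoidal endothelial and 1 of 5 cholangiocyte markers fell, with stellate cell sums of 168.0 to 263.0 CPM. Within the 4MU arm, CCl4 raised 6 of 6 infiltrating macrophage (sums of 123.0 to 221.0 against 2.72 to 6.91 CPM), 4 of 6 stellate cell and 3 of 5 cholangiocyte markers. In the siLuc-LNP arm 2 of 6, 2 of 6 and 3 of 5 of these rose and 3 of 5 Kupffer cell markers fell, and in the siHAS2-LNP arm 2 of 6, 2 of 6 and 2 of 5 rose and 4 of 5 Kupffer cell markers fell (sums of 89.2 to 124.0 against 314.0 to 366.0 CPM). In CCl4 + siLuc-LNP against CCl4, 1 of 5 Kupffer cell markers fell. The part of these cell types in the results on the members was not tested.

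Genes next to the members were read as a check of shared reads, since the strand setting of the counting is not stated. Prkdc starts 489 bases from Mcm4 on the other strand and does not overlap it, and its log2 fold change was 0.90 (adjusted p = 0.00108) in CCl4 against control and -0.70 (adjusted p = 0.017) in CCl4 + 4MU against CCl4. Cops6 and Ap4m1 overlap Mcm7 on the other strand, with -0.14 and -0.40 in CCl4 against control, neither called. Ap4m1 was called lower by edgeR in the siLuc-LNP arm (-0.69, adjusted p = 0.0026) and in the mean effect of CCl4 (-0.27, adjusted p = 0.0088). Gm56584, a gene of a long non-coding RNA, overlaps Gmnn on the other strand. It was not among the genes counted, so shared reads could not be checked there. The microRNA genes Mir25, Mir93 and Mir106b, within Mcm7, had 0 counts.

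The members map to these places in GRCm39. Mcm2 (ENSMUSG00000002870) is at chr6:88860452-88875762, Mcm3 (ENSMUSG00000041859) at chr1:20870791-20890536, Mcm4 (ENSMUSG00000022673) at chr16:15440211-15455264, Mcm5 (ENSMUSG00000005410) at chr8:75836140-75856231, Mcm6 (ENSMUSG00000026355) at chr1:128259311-128287516 and Mcm7 (ENSMUSG00000029730) at chr5:138162844-138170684. Mcm10 (ENSMUSG00000026669) is at chr2:4994516-5017629, Cdt1 (ENSMUSG00000006585) at chr8:123294703-123300293, Cdc6 (ENSMUSG00000017499) at chr11:98798507-98814766 and Gmnn (ENSMUSG00000006715) at chr13:24935812-24946084. Mcm5, Cdt1 and Cdc6 are on the plus strand and the others on the minus strand.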

How the data were processed

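Polyadenylated RNA from whole liver was sequenced in paired ends with a directional kit. To make the deposited counts, the authors trimmed reads with Trimmomatic 0.39, aligned them to GRCm39 (Ensembl release 105) with HISAT2 and counted unique pairs per gene with featureCounts. The strand setting is not given in the sources used here, so reads of overlapping antisense genes could be shared.

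Counts were analysed in R 4.3.3 with edgeR 4.0.16. Genes averaging 10 or more counts over the libraries entered one fit over 8 groups with TMM scaling, without covariates, and 15 comparisons were made with the quasi-likelihood test and Benjamini-Hochberg adjustment at 0.05 over all tested genes. CPM uses TMM-scaled totals, except for the limit of detection, which uses plain totals. Fold changes are on the log2 scale, and intervals use the t distribution with the residual degrees of freedom. The ratio of Cdt1 to Gmnn used 100000 permutations. Symbols came from GENCODE vM39, which matched 54749 of 55414 genes. On simulated data with 200 changed genes, 37 of 98 changes of 1 and 91 of 102 changes of 2 (log2) were recovered for CCl4 against control, with 5 false calls.

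Alternatives were DESeq2 1.42.0, limma 3.58.1 (voom with quality weights), other size factors, filters, a replicate block, only the compared groups, another gene length and each mouse left out. Leaving out a mouse for the levels per length was added after seeing the data. All 10 members are named, with up to 4 genes of each other list chosen by the largest changes past the threshold. The members and lists were chosen with earlier results of these data known.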

Additional observations from a re-analysis of the deposited data

Results flagged for a closer look

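In groups of 4 mice, the gap between 1 mouse and the next was over the 95% critical value of Dixon's ratio in 6 of 40 tests, where chance gives about 5%. The members were measured in the same mice, so these tests are not independent and the number is not read as an excess. Mcm2 was at 14.4 CPM in CCl4 + siHAS2-LNP mouse 1, with the next mouse at 8.28 CPM, and Cdt1 was at 10 CPM in the same mouse, with the next at 7.03 CPM. CCl4 + siLuc-LNP mouse 4 was at 37.8 CPM for Mcm4 and 11.5 CPM for Cdc6, with the next mice at 11.8 and 2.35 CPM. Control mouse 1 was at 5.09 CPM for Mcm5, with the next at 2.65 CPM. CCl4 + siLuc-LNP mouse 2 was the lowest of its group for Mcm10, at 9.03 CPM, with the next at 14.7 CPM.

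The interaction of 4MU with CCl4 passed the threshold for Mcm7 (-2.13), Gmnn (-1.18) and Mcm4 (-2.33 on the log2 scale). The adjusted p was 0.0115, 0.043 and 0.0401 by edgeR's quasi-likelihood test. Without CCl4 mouse 2 the values were -1.67, -1.08 and -1.74. These calls depended on single mice, as given above.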

How the results depend on the processing

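CCl4 alone and the mean over arms raised 9 members in every setting that left out a mouse. Without filtering low counts, the numbers called were 10 for CCl4 + siLuc-LNP against CCl4, 4 for CCl4 + siHAS2-LNP against CCl4 + siLuc-LNP, 2 for 4MU against control, 8 for the 4MU interaction and 3 for the siHAS2-LNP interaction. DESeq2 called 7 for CCl4 + siLuc-LNP against CCl4 and 5 for the 4MU interaction. Limma-voom called 9 and 5 in these, and 3 in the siLuc-LNP arm, where a fit of only the compared groups called 4. With limma-voom, Cdt1 in the siLuc-LNP arm was at -0.04 and Mcm4 in CCl4 + siHAS2-LNP against CCl4 + siLuc-LNP at 0.02, both with the sign reversed. With the longest transcript as length, the median ratio of subunits was 4.33 in CCl4 mice and 12 in the others. The cause was not tested. These counts of calls, and those with a mouse left out, are given without the share of all tested genes.

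With a mouse left out, the numbers called were 4 to 7 in the siLuc-LNP arm, 1 to 2 in the siHAS2-LNP arm, 4 to 9 for CCl4 + 4MU against CCl4, 0 to 10 for CCl4 + siLuc-LNP against CCl4, 1 to 9 for CCl4 + siHAS2-LNP against CCl4 and 0 to 6 for the 4MU interaction. Signs changed for Gmnn in the siLuc-LNP arm (-0.02 to 0.57), for Mcm4 in CCl4 + siHAS2-LNP against CCl4 + siLuc-LNP (-0.89 to 0.26) and for Mcm10 in the mean effect (-0.01 to 0.22), the siHAS2-LNP arm (-0.28 to 0.03) and the 4MU interaction (-0.25 to 0.63).

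Mice with the same replicate number did not deviate together (correlations of -0.320 to 0.293, median -0.0167, over 83 pairs). The replicate block gave 6 calls in the siLuc-LNP arm and 2 in the 4MU interaction, and left every other count of calls as it was. The CCl4 group of 2 mice and the few counts of Cdc6 limit the precision.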
